A study of Rattus norvegicus with 48 samples.

Results

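The hearts of female rats that never received a drug were compared between day 11, 24 h after the last of 10 daily saline injections, and 30 days after the last injection. Of the 47 libraries of the series, 9 were chosen, by labels that name a female given saline and a replicate number other than 5. There were 4 libraries at day 11 (replicates 1, 2, 4 and 6) and 5 libraries after 30 days (replicates 1, 2, 3, 4 and 6), each from the left ventricle of a different Sprague Dawley rat. All rats were 8 weeks old when the subcutaneous saline injections began, so the comparison describes 30 further days of life in young adults, together with the time since handling and injection. The rest of the series holds males treated alike, and rats of both sexes that received the psychostimulant methamphetamine (5 mg/kg per day) over the same 10 days. Hearts collected at day 11 were sequenced in 1 pool and those collected after 30 days in the other, so the time point and the pool cannot be told apart.

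Polyadenylated RNA was sequenced, and the deposited values are counts of reads per Ensembl gene. Totals ran from 8648090 to 10571471 counts at day 11 and from 6815590 to 9856031 after 30 days, with medians of 9965451.5 and 8290321. A typical library of the later time thus held fewer counts for low-expressed genes. The 9 libraries held 0 to 2.48% of the level of male genes found in males, where 4 genes were used that had been set on other libraries, and the 2 saline-treated females labelled replicate 5 held 105 to 113%. Each of the 16 pairs of libraries within a group differed beyond sampling noise (chi-square over its degrees of freedom, 2.69 to 22.9). Along the first principal component of the 500 most variable genes, which carried 35% of the variance, all 4 libraries of day 11 lay on one side and all 5 libraries of 30 days on the other.

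Elastic fibres let the heart wall and its vessels recoil. Their core is elastin, laid on a scaffold of fibrillins and cross-linked by lysyl oxidases, and the bulk of elastin is made early in life. Basement membranes, which wrap each cardiomyocyte and capillary, are built on collagen IV. Heart cells also carry a circadian clock, in which Arntl (also known as Bmal1) pairs with Clock or Npas2 to switch on the Per and Cry genes, whose proteins then repress the pair. In a second loop the nuclear receptors Nr1d1 and Nr1d2 repress Arntl, and the output factors Dbp and Tef share target sites with the repressor Nfil3. These transcripts rise and fall over the day, so their levels follow the hour at which a heart is taken. The study's methods place all heart isolations within the same 2 h of the morning and give no hour for a single rat.

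After 30 days, 327 of 13688 tested genes were called, that is, had an adjusted p under 0.1 in edgeR's quasi-likelihood test with Benjamini-Hochberg adjustment, which is 2.39% of the genes tested. Of these, 141 genes (1.03%) rose and 186 genes (1.36%) fell. An unadjusted p under 0.05 was found for 1977 genes. Most changes were small. The median size of the called changes was 0.61 on the log2 scale, and 31 called genes rose and 39 fell by 2-fold or more. The share called was 1.94% of 2738 genes under 5 CPM (counts scaled to 1000000 per library), 2.16% of 7468 genes between 5 and 50 CPM and 3.25% of 3482 genes over 50 CPM. In 308 of the 327 called genes the libraries of the 2 time points did not overlap in CPM, against 879 of all 13688 tested genes (6.42%).

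**Figure D1:**
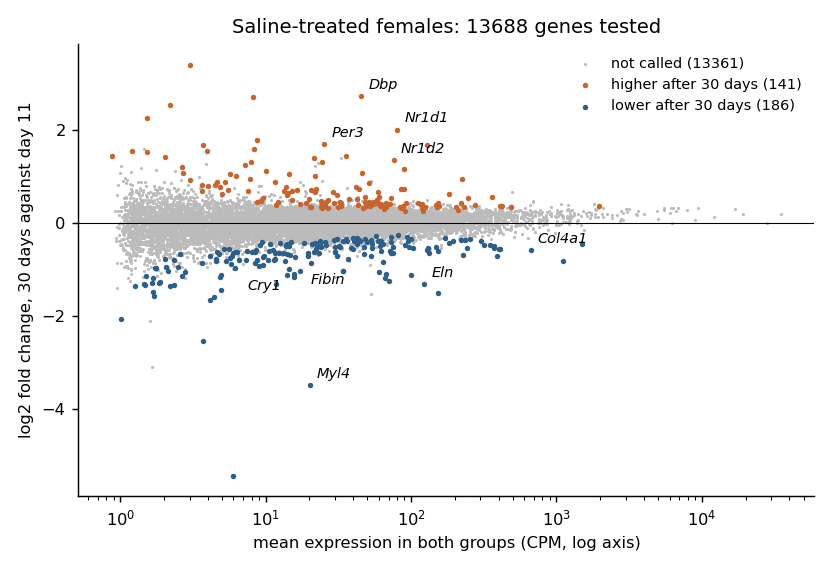
Each point is 1 of the 13688 genes tested in saline-treated females, with its mean expression in both groups (CPM, log axis) against its log2 fold change after 30 days relative to day 11. The 141 called genes that rose (orange) and the 186 that fell (blue) lie at all levels of expression, with Dbp and Nr1d1 among the largest rises and Myl4 and Eln among the largest falls of genes with a symbol.

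The count of calls depended on single libraries. It fell to 114 genes without replicate 4 of day 11, 120 without replicate 1 of day 11, 159 without replicate 2 of day 11 and 170 without replicate 6 of day 11. It was 149 without replicate 1 of 30 days, 151 without replicate 6 of 30 days and 494 without replicate 3 of 30 days. Replicate 1 of 30 days carried a rat number well below those of the other 8 rats, and without it 55 genes rose and 94 fell. Among the 327 genes, 79 genes (24.2%) were called in all 9 fits that each left out 1 library, with 33 higher and 46 lower after 30 days. These include the elastin gene Eln, Fbn1, Col4a1, Mmp14, Adamts12, Dbp, Nr1d1 and Nr1d2, which are described next.

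**Figure D2:**
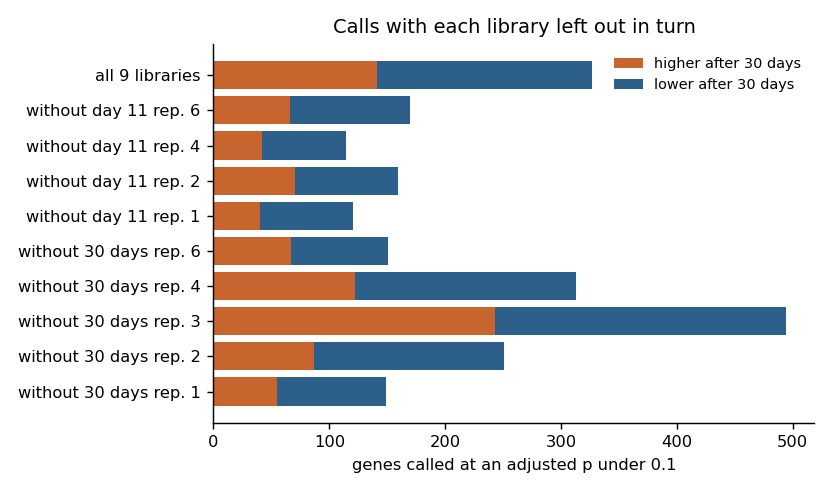
Bars give the number of genes called at an adjusted p under 0.1, split into genes higher (orange) and lower (blue) after 30 days, for all 9 libraries and with each library left out in turn. The total runs from 114 to 494 genes, and fewer genes rose than fell in every fit.

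Only 328 genes could be given a symbol, from the study's tables, and these are not a random draw. The study listed 276 of them because they differed between methamphetamine and saline in females at day 11, a choice whose saline libraries included those of day 11 used here. Of these 276 genes 44 were called (15.9%), with 18 higher and 26 lower after 30 days. The direction of these genes is therefore not independent of how they came to be named. Of the 47 genes the study listed for males at day 11, which were chosen on other libraries, 2 were called (4.26%). The other 279 called genes carry only an identifier here.

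Most genes of the extracellular matrix that had a symbol read lower after 30 days. Of 54 listed matrix genes, 16 had a symbol, 1 of them under 2 identifiers, and of these 17 identifiers 10 fell, 0 rose and 7 were not called, beside 1.36% of all genes that fell. The median log2 fold change of the 17 was -0.54, against 0.0078 for all genes tested, and 15 of them had a value below 0. All 17 come from the study's list for females at day 11, where 26 of 276 genes fell. The libraries behind that list included these day 11 saline libraries, so the direction of the 17 is a description.

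Eln, which encodes elastin, had the smallest p of all genes. Its 4 libraries at day 11 read 182, 179, 186 and 162 CPM. The 5 libraries after 30 days read 75.4, 71.9, 62.1, 64.8 and 77.5 CPM. The groups were far apart and the libraries within each lay close together, with 177 ± 10.5 CPM (SD, n = 4) at day 11 and 70.3 ± 6.67 CPM (SD, n = 5) after 30 days. Eln was 2.51-fold lower after 30 days (log2 fold change -1.33, SE 0.08, edgeR adjusted p = 1.26e-05), and with any 1 library left out the log2 fold change stayed between -1.37 and -1.29.

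Other parts of the elastic fibre were lower by less. Fbn1 encodes fibrillin-1, the scaffold on which elastin is laid. It read 161, 188, 184 and 204 CPM at day 11 and 103, 138, 144, 98.1 and 115 CPM after 30 days, without overlap (log2 fold change -0.62, SE 0.12, edgeR adjusted p = 0.0286). Loxl1, a lysyl oxidase that cross-links elastin, fell from 45.7 ± 7.62 CPM (SD, n = 4) to 31.2 ± 4.65 CPM (SD, n = 5), with a log2 fold change of -0.55 (SE 0.13, edgeR adjusted p = 0.0745). Its highest library after 30 days, at 37.0 CPM, lay just under its lowest at day 11, at 37.6 CPM, and the call was lost without replicate 2, 4 or 6 of day 11 or replicate 1 or 6 of 30 days (adjusted p of 0.159, 0.129, 0.191, 0.163 and 0.174). Emilin1, an elastic fibre glycoprotein, was not called, with 64.6 ± 5.17 CPM at day 11 and 53.8 ± 3.76 CPM after 30 days (edgeR adjusted p = 0.175). It was called only without replicate 3 of 30 days among the fits that left out 1 library (edgeR adjusted p = 0.0956).

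The 2 chains of collagen IV that had a symbol, Col4a1 and Col4a2, both fell. Col4a1 read 716, 877, 767 and 833 CPM at day 11 and 496, 589, 554, 459 and 547 CPM after 30 days, so that every later library lay below every earlier one. It was 1.5-fold lower (log2 fold change -0.59, SE 0.09, edgeR adjusted p = 0.0128). Col4a2 had a log2 fold change of -0.54 (SE 0.11, edgeR adjusted p = 0.0346), a call lost without replicate 4 or 6 of day 11 (adjusted p of 0.104 and 0.102). Col15a1, a collagen of the zone next to basement membranes, is listed under 2 identifiers that could share reads, and both fell, by 0.54 and 0.48 on the log2 scale.

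Col5a3, a chain of the fibril-forming collagen V, read 81.9, 88.9, 94.7 and 90.0 CPM at day 11 and 69.1, 45.2, 45.3, 50.8 and 72.9 CPM after 30 days. The groups did not overlap, although replicates 1 and 6 of 30 days stood apart from the other 3 and nearer to day 11. The log2 fold change was -0.65 (SE 0.14, edgeR adjusted p = 0.0479), and the call was lost without any 1 of replicates 1, 2, 4 and 6 of day 11 (adjusted p of 0.107, 0.112, 0.150 and 0.118). The collagen VI chains Col6a1 and Col6a2 were not called, at log2 fold changes of -0.28 and -0.23.

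Proteases of the matrix were lower too. Mmp14, a membrane-bound metalloproteinase that cleaves collagen, read 56.9, 54.6, 62.4 and 60.4 CPM at day 11 and 42.1, 35.7, 31.8, 30.1 and 44.3 CPM after 30 days (log2 fold change -0.67, SE 0.11, edgeR adjusted p = 0.0179). Adamts12, a secreted metalloproteinase with thrombospondin motifs, fell by 0.85 on the log2 scale (SE 0.13, edgeR adjusted p = 0.0129). Its libraries ran from 70.0 to 94.9 CPM at day 11 and from 32.2 to 53.6 CPM after 30 days. The inhibitor Timp3, the collagen-modifying enzyme P4ha2 and the matrix glycoprotein Thbs2 were not called and had log2 fold changes of 0.015, 0.075 and -0.059. Spon2, a secreted matrix protein, was not called either (log2 fold change -0.56, edgeR adjusted p = 0.125).

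**Figure D3:**
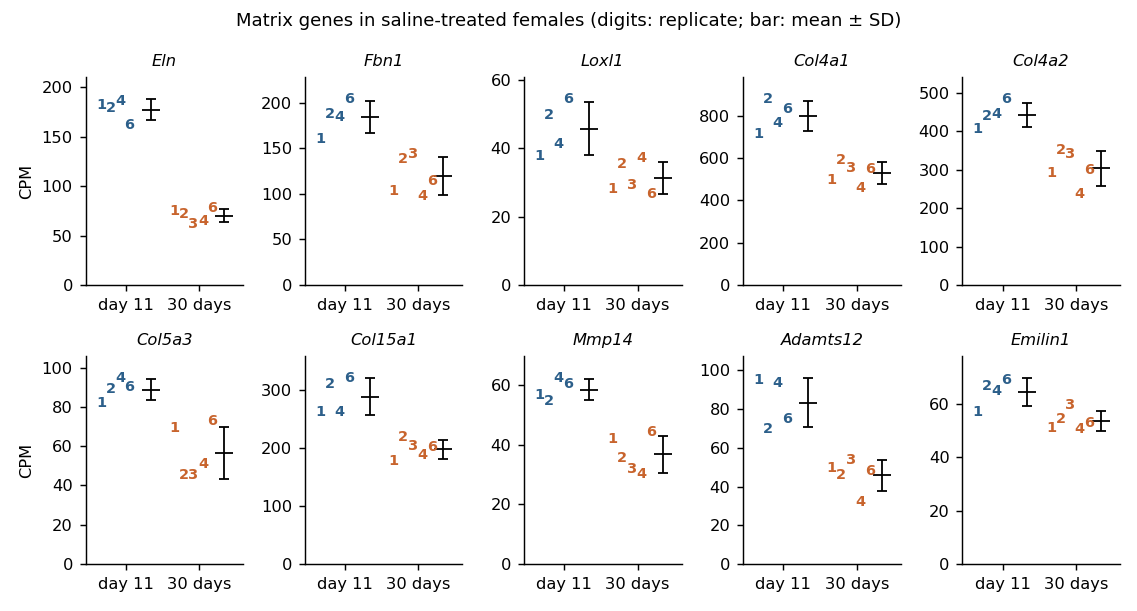
Expression (CPM) of 10 matrix genes in each library of saline-treated females at day 11 (blue) and after 30 days (orange), with digits for the replicate and a bar for mean ± SD. The time points are separate in 9 of the panels, all of called genes, most widely in Eln, and overlap in Emilin1, which was not called. Col15a1 is shown for 1 of its 2 identifiers.

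Several other genes with a symbol fell. Fibin, which encodes a secreted factor first known from fin bud development, read 22.6, 22.3, 26.4 and 21.7 CPM at day 11 and 12.8, 11.4, 11.0, 7.99 and 12.6 CPM after 30 days. It was 2.07-fold lower (log2 fold change -1.05, SE 0.13, edgeR adjusted p = 0.00242). Olfml2b, an olfactomedin-domain protein of the matrix, fell by 0.83 on the log2 scale (SE 0.12, edgeR adjusted p = 0.0067), from 17.5 ± 2.43 CPM to 9.81 ± 0.790 CPM. Medag, a gene linked to the formation of fat cells, fell by 0.78 (SE 0.15, edgeR adjusted p = 0.0286). Agpat3, an acyltransferase of phospholipid synthesis, fell by 0.64, and the ubiquitin ligase Rnf144a by 0.51 on the log2 scale. None of these 5 genes lost its call when any 1 library was left out. Tmem255b, a transmembrane protein, fell by 0.64 (edgeR adjusted p = 0.0644), but its call was lost in 6 of the 9 fits that left out 1 library, with an adjusted p of up to 0.208 without replicate 1 of day 11. Cdkn1a, which encodes the cell cycle inhibitor p21, fell by 0.71 (edgeR adjusted p = 0.0961), and its call held in 2 of those 9 fits.

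The circadian clock differed between the time points. Of 20 listed clock genes, 13 had a symbol and were tested. After 30 days 5 of them rose, 1 fell and 7 were not called, beside 1.03% and 1.36% of all genes, and their median log2 fold change was 0.20. The study listed 10 of the 13 for females at day 11, on libraries that included the day 11 libraries used here. Nr1d1, Cry1 and Nfil3 were named for males after 30 days, on libraries not used in this comparison.

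The receptors that repress Arntl were higher after 30 days. Nr1d1 read 28.4, 28.9, 24.8 and 46.2 CPM at day 11. After 30 days it read 89.1, 172, 162, 141 and 76.9 CPM. Every later library lay above every earlier one, and the mean was 4.01-fold higher (log2 fold change 2.00, SE 0.25, edgeR adjusted p = 0.00419). Nr1d2 behaved alike, with 33.2, 42.5, 36.2 and 61.2 CPM at day 11 and 77.9, 131, 143, 116 and 79.1 CPM after 30 days (log2 fold change 1.35, SE 0.21, edgeR adjusted p = 0.0141).

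Among the output factors, Dbp read 9.86, 13.6, 10.0 and 14.9 CPM at day 11 and 30.4, 99.8, 106, 136 and 22.8 CPM after 30 days. The lowest later library was still above the highest earlier one, and the log2 fold change was 2.72 (SE 0.47, edgeR adjusted p = 0.0215). Tef, of the same family, read 65.8, 61.9, 55.7 and 75.3 CPM at day 11 and 81.3, 123, 123, 132 and 74.9 CPM after 30 days. The groups overlapped by 1 library, at a log2 fold change of 0.73 (SE 0.17, edgeR adjusted p = 0.0587). Its call was lost without replicate 1, 2 or 4 of day 11 or replicate 2 of 30 days (adjusted p of 0.166, 0.135, 0.193 and 0.126). Nfil3, which opposes Dbp and Tef, had a log2 fold change of -0.54 and was not called (SE 0.16, edgeR adjusted p = 0.159).

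Among the repressors, Per3 read 8.90, 15.5, 6.84 and 17.1 CPM at day 11 and 17.0, 51.4, 55.8, 50.8 and 17.1 CPM after 30 days. Replicates 1 and 6 of 30 days thus equalled the highest library of day 11, while the other 3 lay about 3-fold above it, and the log2 fold change was 1.69 (SE 0.40, edgeR adjusted p = 0.0644). The call was lost without any 1 of replicates 1, 2, 4 and 6 of day 11 or replicate 2 of 30 days (adjusted p of 0.204, 0.113, 0.200, 0.101 and 0.123). Cry1 moved the other way, with 25.8, 17.3, 23.1 and 19.6 CPM at day 11 and 13.4, 5.52, 9.31, 7.99 and 14.0 CPM after 30 days. It was 2.14-fold lower (log2 fold change -1.10, SE 0.22, edgeR adjusted p = 0.0346), and the call was lost without replicate 1 or 4 of day 11 (adjusted p of 0.120 and 0.105). Per2, Cry2 and Usp2, a deubiquitinase with clock-driven expression, were not called, with log2 fold changes of 0.17, 0.20 and 0.32.

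The activators were not called. Arntl read 82.2, 58.7, 74.7 and 58.4 CPM at day 11 and 60.5, 25.6, 22.5, 21.2 and 51.5 CPM after 30 days, and the log2 fold change was -0.92 (SE 0.28, edgeR adjusted p = 0.156). Replicate 1 of 30 days lay inside the range of day 11 and replicate 6 below it, and without replicate 1 of 30 days the adjusted p was 0.0707. Clock and Npas2 had log2 fold changes of -0.46 and -0.48 (edgeR adjusted p of 0.131 and 0.207), and Clock was called without replicate 3 or 4 of 30 days (adjusted p of 0.0742 and 0.0904).

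Within the later group most clock genes split the rats in the same way. Replicates 2, 3 and 4 of 30 days carried rat numbers close to each other, and replicates 1 and 6 carried numbers apart from these. In Dbp, Nr1d1, Nr1d2, Per3, Tef, Cry1, Cry2, Arntl, Npas2, Nfil3 and Usp2, both replicates 1 and 6 lay nearer to the mean of day 11 than replicates 2, 3 and 4 did, and in Clock and Per2 they did not. In Per2, replicates 1 and 6 read 13 and 10.8 CPM, below the lowest library of day 11 at 17.4 CPM, while the other 3 read 26.3 to 33.0 CPM, above its highest at 22.7 CPM. The split was not limited to the clock. Outside it, replicates 1 and 6 also lay nearest to day 11 in Eln, Mmp14, Col5a3 and Fibin, but not in Fbn1, Col4a1 or Lmod2. The share of all genes that did so was not tested. The rat numbers come from the labels, which do not say what they mark, and the litter and the hour of each rat within the 2 h of isolation were not tested. The 4 rats of day 11 carried numbers close to each other.

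**Figure D4:**
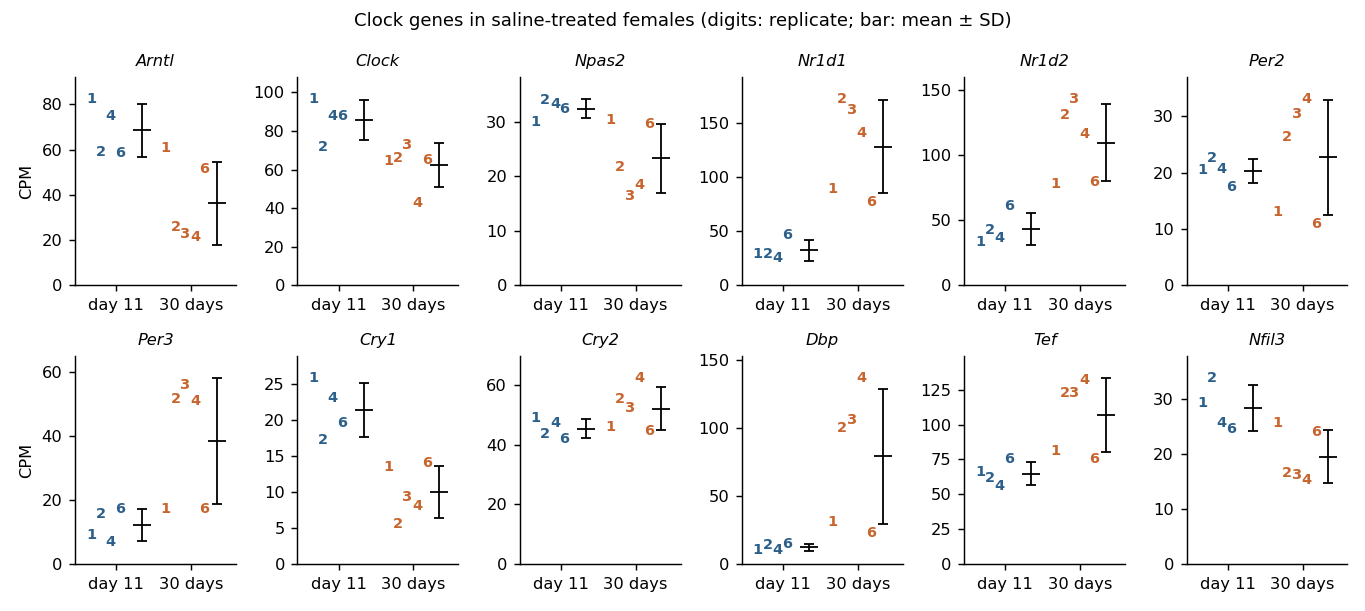
Expression (CPM) of 12 clock genes in each library of saline-treated females at day 11 (blue) and after 30 days (orange), with digits for the replicate and a bar for mean ± SD. Replicates 1 and 6 of 30 days lie nearer to the mean of day 11 than replicates 2, 3 and 4 do in Dbp, Per3, Tef and Nfil3.

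The promoters of the clock genes are shown because the activators bind the E-box, CACGTG, and the receptors Nr1d1 and Nr1d2 bind an element holding TAGGTCA, so that the letters can be read beside the levels. Of the 13 clock genes, 12 had an entry among the RefSeq promoters of build GRCr8, and in the 250 bases before each start both strands were searched for CACGTG, for CACGTT, for the D-box of Dbp and Tef (TTATGTAA or TTACGTAA) and for TAGGTCA. These windows held CACGTG for Tef and for 1 of 2 starts of Nr1d1, CACGTT for Per2, Cry2 and the other start of Nr1d1, a D-box for Per2 and TAGGTCA for Arntl. Over all 33469 promoters in the table, 5.59% held CACGTG, 4.07% CACGTT, 0.932% a D-box and 2.26% TAGGTCA. The E-box and its variant differ in their last base, so the same 6 bases on 1 strand cannot match both. The windows are given on the gene's own strand, 5′ to 3′, with the match in capitals. The first base of the match lies 191 bases before the start in Nr1d1 (chr10:84229455-84229704, minus strand), 198 bases in Tef (chr7:115206577-115206826, plus strand) and 16 bases in Arntl (chr1:176766078-176766327, plus strand).
Nr1d1: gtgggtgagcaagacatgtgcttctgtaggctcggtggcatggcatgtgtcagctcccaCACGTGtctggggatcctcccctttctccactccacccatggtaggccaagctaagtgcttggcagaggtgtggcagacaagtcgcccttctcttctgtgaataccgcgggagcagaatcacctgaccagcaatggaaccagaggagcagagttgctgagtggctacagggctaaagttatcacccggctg
Tef: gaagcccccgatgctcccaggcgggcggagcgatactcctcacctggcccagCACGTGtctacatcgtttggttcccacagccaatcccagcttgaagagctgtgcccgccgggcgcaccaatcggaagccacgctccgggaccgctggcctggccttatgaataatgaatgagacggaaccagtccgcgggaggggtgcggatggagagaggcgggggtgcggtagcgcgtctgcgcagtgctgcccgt
Arntl: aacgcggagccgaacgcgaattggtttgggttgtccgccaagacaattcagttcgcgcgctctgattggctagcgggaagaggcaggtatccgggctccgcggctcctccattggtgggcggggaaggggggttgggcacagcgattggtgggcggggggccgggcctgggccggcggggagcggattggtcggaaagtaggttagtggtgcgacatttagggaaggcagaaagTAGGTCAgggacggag
In these libraries Nr1d1 and Tef, whose windows hold an E-box, rose, but so did Dbp, Nr1d2 and Per3, whose windows hold none of the 4 motifs. Per2 and Cry2, with the E-box variant that the other start of Nr1d1 also holds, and Arntl, with the receptors' element, were not called.

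Outside the clock the genes with a symbol that rose did so by less than 2-fold. Lmod2, leiomodin 2, which lengthens the thin filaments of the cardiac sarcomere, read 373, 343, 365 and 377 CPM at day 11 and 471, 489, 450, 440 and 480 CPM after 30 days (log2 fold change 0.36, SE 0.07, edgeR adjusted p = 0.0287). The groups did not overlap, and the call was lost without replicate 4 of day 11 (adjusted p = 0.105). The entry LOC100909784 read almost the same in each library (351 to 384 and 448 to 498 CPM), so reads of these genes may be shared between near-identical sequences and the pair is uncertain. Klhdc8b, a kelch domain protein, rose from 42.1 to 51.1 CPM at day 11 to 60.3 to 71.0 CPM after 30 days (log2 fold change 0.45, SE 0.09, edgeR adjusted p = 0.0305), and its call was lost without replicate 1 or 4 of day 11 (adjusted p of 0.111 and 0.115).

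Carriers of the inner mitochondrial membrane were among the rises. Slc25a38, a glycine carrier, had a log2 fold change of 0.46 (SE 0.10, edgeR adjusted p = 0.0445), and Slc25a29, a carrier of basic amino acids, of 0.43 (SE 0.09, edgeR adjusted p = 0.0452). The serine/threonine kinase Pim3 rose by a log2 fold change of 0.43 (edgeR adjusted p = 0.0445). Hpd, an enzyme of tyrosine breakdown, Cdc42ep2, an effector of the small GTPase Cdc42, Pik3ip1, an inhibitor of phosphoinositide 3-kinase, and Mid1ip1, a regulator of fatty acid synthesis, had log2 fold changes of 0.69, 0.45, 0.43 and 0.41 (edgeR adjusted p of 0.0834, 0.0910, 0.0929 and 0.0910). In all 7 genes the time points did not overlap, which was a condition for naming them. Their calls were close to the threshold. Of the 9 fits that left out 1 library, they held in 5 for Slc25a29, 4 for Pim3 and 3 for Slc25a38. For Hpd, Cdc42ep2, Pik3ip1 and Mid1ip1 they held in 2. Without replicate 1 of day 11 each of the 7 was lost, with adjusted p of 0.112 for Slc25a38, 0.146 for Slc25a29, 0.149 for Pim3, 0.174 for Hpd, 0.250 for Cdc42ep2, 0.276 for Pik3ip1 and 0.269 for Mid1ip1.

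For other pathways few genes had a symbol. All 5 genes of glucose use that were tested (Slc2a1, Slc2a4, Slc2a12, Pfkfb2 and Txnip) were not called and had log2 fold changes above 0, between 0.13 and 0.66. Txnip, which inhibits glucose uptake, read 349 to 442 CPM at day 11 and 895, 674, 409, 584 and 449 CPM after 30 days (edgeR adjusted p = 0.142), and was called without replicate 3 of 30 days (adjusted p = 0.0454). The 3 genes of fatty acid use, Ucp3, Plin4 and Dgat2, were not called, with log2 fold changes of -0.71, -0.33 and -0.094, and Ucp3 was called without replicate 1 of 30 days (adjusted p = 0.0349). Gbp1, a guanylate-binding GTPase of the interferon response, rose (log2 fold change 0.73, SE 0.19, edgeR adjusted p = 0.0928) with overlapping groups, and its call held in 1 of the 9 fits that left out 1 library. Of 3 genes of the glucocorticoid response, Cdkn1a fell as given above, and Tsc22d3 and Zbtb16 were not called (log2 fold changes -0.38 and -0.44). Not called either were the gap junction gene Gja1, the potassium channel Kcnk3, the heat shock genes Dnajb4 and Hspb7, Herpud1 of the endoplasmic reticulum, the immediate early genes Ier3 and Klf10, the thyroid hormone receptor Thra and the cell cycle gene Hmgb2. Klf10 was called without replicate 3 of 30 days (adjusted p = 0.0341).

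Markers of cell types could be checked for few types, since 8 of the marker lists, cardiomyocytes, fibroblasts and endothelial cells included, had 0 genes with a symbol. Pdgfrb, of pericytes, read 138 to 184 CPM at day 11 and 130 to 154 CPM after 30 days (edgeR adjusted p = 0.421). Ptprc, of leukocytes, read 18.8 to 21.6 CPM and 19.8 to 24.0 CPM (edgeR adjusted p = 0.334). In such tissue RNA, fewer cells of a type and less RNA per cell cannot be told apart.

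Myl4, the atrial essential light chain of myosin, was the only atrial marker with a symbol and had the largest fall of the genes named here by symbol. It read 90.8, 37.2, 13.9 and 5.85 CPM at day 11 and 4.37, 1.92, 2.80, 2.76 and 4.61 CPM after 30 days. The libraries of day 11 spread over more than 10-fold, and the lowest of them was just above the highest of 30 days. The log2 fold change was -3.49 (SE 0.68, edgeR adjusted p = 0.0310), and without replicate 1 of day 11 it was -2.52. The gene ENSRNOG00000012404, with no symbol, followed the same order, with 29.7, 10.9, 4.65 and 1.21 CPM at day 11 and 0 to 0.501 CPM after 30 days (log2 fold change -5.44, edgeR adjusted p = 0.0255). Eln lay between 162 and 186 CPM in all 4 libraries of day 11, with Eln and Myl4 lowest in the same library. The share of atrial tissue in each sample was not tested.

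Of the called genes without a symbol and over 5 CPM, the other ones with the largest changes were ENSRNOG00000020263, which fell by 1.67 on the log2 scale (SE 0.31, edgeR adjusted p = 0.0255), and ENSRNOG00000042717 and ENSRNOG00000047706, which rose by 3.40 and 2.71 (edgeR adjusted p of 0.0576 and 0.0414). With 1 library left out, the call of ENSRNOG00000042717 held in 4 of the 8 fits that tested it. That of ENSRNOG00000047706 held in 5 of 9. ENSRNOG00000047706 read 1.91 to 2.52 CPM at day 11 and 3.75, 23.4, 18.0, 22.7 and 3.52 CPM after 30 days. Here too replicates 1 and 6 of 30 days lay nearer to day 11 than the other 3 did. ENSRNOG00000042717 read 0.182 to 0.908 CPM at day 11 and 1.25, 4.68, 6.11, 14.1 and 1.21 CPM after 30 days, with the same rats lowest.

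The same interval was examined in the hearts of saline-treated males, from 10 other libraries of the same 2 pools. There 202 of 13717 genes were called (1.47%). Of the 323 genes called in females and tested in males, 206 (63.8%) had the same sign, beside 46% of all 13538 genes tested in both, and 38 genes were called in both sexes, which is 11.8% of the female list and 19.1% of the male list. Of these 38 genes, 29 moved the same way and 9 the opposite way. Across genes, which are not independent replicates, female and male log2 fold changes were correlated at a Pearson r of 0.011. The difference between the sexes was called for 145 of 14133 genes (1.03%), and 73 of these were among the 327 genes called in females.

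In most clock genes the saline-treated females and males moved in opposite directions. Dbp stood at 12.1 ± 2.55 CPM at day 11 and 79.0 ± 49.9 CPM after 30 days in females, and at 69.9 ± 39.8 CPM and 12.7 ± 2.38 CPM in males (log2 fold change -2.48, SE 0.33, edgeR adjusted p = 0.00513), and the difference between the sexes was 5.19 on the log2 scale (SE 0.64, edgeR adjusted p = 0.000189). Nr1d1 fell in males from 93.1 ± 26.0 CPM to 28.5 ± 5.43 CPM, and its difference between the sexes was 3.72 on the log2 scale (SE 0.34, edgeR adjusted p = 6.94e-06). Nr1d2 and Per3 also fell in males, by 1.23 and 1.79 on the log2 scale, while Arntl rose and Cry1 and Nfil3 rose by log2 fold changes of 0.97 and 0.93. The difference between the sexes was called for 10 of the 13 clock genes, beside 1.03% of all genes. In those 10 the female and the male fold change had opposite signs. The study chose Nr1d1, Cry1 and Nfil3 on the male libraries of 30 days and the other 10 on the females of day 11. The clock values, counts and differences between the sexes are therefore a description. The male groups carried separate runs of rat numbers at day 11 and after 30 days, and what the numbers mark was not tested.

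In the matrix, Eln fell in males as well, from 142 ± 14.2 CPM to 109 ± 7.94 CPM (log2 fold change -0.39, SE 0.08, edgeR adjusted p = 0.0504), and the fall was larger in females by 0.94 on the log2 scale (SE 0.11, edgeR adjusted p = 0.000189). The median log2 fold change of the 17 matrix identifiers was -0.26 in males, where 2 of them fell and 0 rose. All 17 were listed by the study on the females of day 11, so the comparison of the sexes is a description here too. Beside 1.03% of all genes, the difference between the sexes was called for 4 of the 17, namely Eln, Col5a3, Mmp14 and Adamts12. The last 3 were not called in males, at log2 fold changes of 0.12, -0.036 and -0.20. The difference was also called for Fibin, which had a log2 fold change of 0.28 in males (edgeR adjusted p = 0.238), at a difference of -1.33 (SE 0.15, edgeR adjusted p = 0.000117). For Fbn1 and Col4a1 it was not called, with log2 fold changes of -0.33 and -0.32 in males.

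In females given methamphetamine, again 10 other libraries, 485 of 13736 genes were called between day 11 and 30 days (3.53%). Of the 319 genes called in saline-treated females and tested there, 228 (71.5%) had the same sign, beside 62.5% of all 13568 genes tested in both, and 79 genes were called in both, which is 24.8% of the saline list and 16.4% of the methamphetamine list. Of these 79, 68 moved the same way. The change over time differed between the treatments in 175 of 14179 genes (1.23%), among them 67 of the 327 genes called in saline-treated females. For genes with a symbol this difference holds the day 11 contrast on which the study chose most of them, and it is given as a description.

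The study chose the matrix genes for a difference between the treatments at day 11, so their levels in the 4 groups of females are a description, and no test was run between the treatments after 30 days. Eln stood at 70.3 ± 6.67 CPM and 64.6 ± 15.7 CPM after 30 days with saline and methamphetamine, and at 177 ± 10.5 CPM and 40.3 ± 4.84 CPM at day 11. It thus rose over time with methamphetamine (log2 fold change 0.68, SE 0.15, edgeR adjusted p = 0.0452), while it fell with saline. Mmp14 stood at 36.8 ± 6.24 CPM and 31.2 ± 8.52 CPM after 30 days, and at 58.5 ± 3.49 CPM and 16.8 ± 2.27 CPM at day 11. Col5a3 stood at 56.6 ± 13.4 CPM and 47.4 ± 14.4 CPM after 30 days, and at 88.9 ± 5.28 CPM and 18.0 ± 1.6 CPM at day 11. It rose by a log2 fold change of 1.39 with methamphetamine, and of the 17 matrix identifiers 6 rose and 1 fell in that group. Adamts12, at 45.7 ± 6.37 CPM at day 11 and 44.7 ± 12.2 CPM after 30 days with methamphetamine, had a log2 fold change of -0.030 there.

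In the clock, Dbp stood at 153 ± 27.7 CPM at day 11 and 101 ± 70.1 CPM after 30 days with methamphetamine (log2 fold change -0.59, edgeR adjusted p = 0.564). Nr1d1 rose with methamphetamine too, from 78.6 ± 13.9 CPM to 122 ± 26.7 CPM (log2 fold change 0.63, edgeR adjusted p = 0.0755), and Cry1 fell by 1.21 on the log2 scale (edgeR adjusted p = 0.00132), beside 1.10 with saline. Arntl rose by a log2 fold change of 3.75 with methamphetamine, from 1.98 ± 0.346 CPM. Among the clock genes, saline-treated females at day 11 thus had the lowest mean of the 4 groups of females in Dbp, Nr1d1, Nr1d2, Per2, Per3, Cry2, Tef and Usp2, and the highest in Arntl, Clock, Npas2, Nfil3 and Cry1. For Cry1 that mean was 21.4 ± 3.76 CPM, close to 21.3 ± 1.23 CPM with methamphetamine at day 11. For Per2 it was 20.3 ± 2.2 CPM, close to 22.7 ± 10.2 CPM with saline after 30 days.

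**Figure D5:**
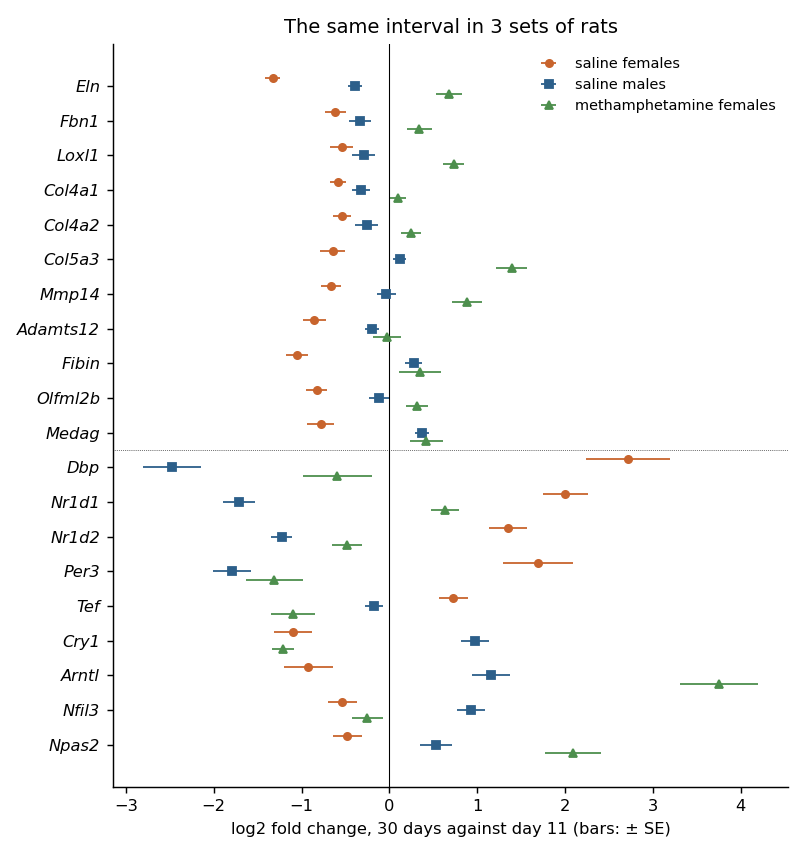
Log2 fold change after 30 days relative to day 11, ± SE, of matrix genes with Fibin, Olfml2b and Medag (11 genes, above the dotted line) and 9 clock genes (below it), in saline-treated females (orange circles), saline-treated males (blue squares) and methamphetamine-treated females (green triangles). The 11 genes above the line are all called falls in saline-treated females, so their side of 0 there follows from the choice. Matrix genes that were not called, such as Timp3 and P4ha2, are not shown. In saline-treated females Dbp, Nr1d1, Nr1d2 and Per3 lie on the opposite side of 0 from the males.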

How the data were processed

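Total RNA of the left ventricle was isolated with Trizol, and libraries were made by the authors with a stranded mRNA kit and sequenced as paired ends. Per the authors' methods, trimming was done with Trimmomatic 0.38, alignment to Rnor_6.0 with HISAT2 2.1.0 and assignment to Ensembl genes with GenomicAlignments. Whether the counting used strand, and how reads on several genes were treated, is not given in the sources used here. The deposited count table holds, without normalization, the reads on each of 32883 genes in 47 libraries. A second deposited table holds a normalized signal, checked to be these counts divided by 1 size factor per library, which was used only for alternatives. The study's own analysis used DESeq2 1.20.0.

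Groups followed the labels. Replicates labelled 5 were left out of every group, and 1 library of saline-treated females at day 11, excluded by the study, is not used here. Each comparison was fitted on its own groups with edgeR 4.0.16 in R 4.3.3 (quasi-likelihood test, TMM factors, default filterByExpr filter), and differences between the sexes or treatments as interactions over 4 groups. CPM are counts per 1000000 with TMM factors over the libraries kept. The SE was taken as the size of the log2 fold change divided by the square root of F. The test was tried on simulated data. Alternatives were DESeq2 1.42.0, RLE factors, an adjusted p under 0.05, a minimum of 10 counts in every library, no filter, limma 3.58.1 voom with quality weights, limma on the log2 signal with a pseudocount of 1 or 0.1, the replicate number as a block, 1 fit of all 8 groups, replicates labelled 5 kept, and each library left out.

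The libraries, the gene lists and the rule for named genes were chosen with earlier results of these data known. Named were, among genes with a symbol, the 12 largest rises and the 12 largest falls that were called, reached 5 CPM in the higher group and did not overlap, the 6 called genes of smallest p in each direction, the 4 of smallest p in each interaction, all tested members of the lists (1 of which is not reported here), and at most 2 identifiers without a symbol per direction. Symbols came from the study's tables, for 328 genes, since no table at hand pairs other identifiers of this build with symbols. Promoter letters are from RefSeq on another build, GRCr8, matched by symbol.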

Additional observations from a re-analysis of the deposited data

Results flagged for a closer look

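In 8 of 152 combinations of a named gene and a group, 1 library lay far from the others of its group by Dixon's test, a share that chance gives in about 1 in 20. After 30 days, replicate 4 stood apart in 4 genes. It read 20.7 CPM for Hpd, 49.3 CPM for Cdc42ep2 and 225 CPM for Herpud1, above the other 4 libraries, and 42.7 CPM for Clock, below them. At day 11, replicate 4 was highest for Pfkfb2 (118 CPM) and Tsc22d3 (115 CPM), replicate 2 for Pim3 (51.2 CPM) and replicate 6 for Zbtb16 (18.4 CPM). The 4 libraries of day 11 limit what such a test can show.

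The change over 30 days differed between saline-treated females and males, by the interaction test, for 25 genes named here, and the differences that follow are female minus male on the log2 scale. Most of these genes were listed by the study on libraries that included these saline-treated females at day 11. Among clock genes it was 5.19 for Dbp, 3.72 for Nr1d1, 3.48 for Per3, 2.57 for Nr1d2, 0.90 for Tef, -0.73 for Clock, -1.01 for Npas2, -1.47 for Nfil3, -2.07 for Cry1 and -2.08 for Arntl. Among matrix genes it was -0.94 for Eln, -0.77 for Col5a3, -0.66 for Adamts12 and -0.63 for Mmp14. For other genes it was 1.17 for Txnip, 1.11 for Cdc42ep2, 0.83 for Pim3, 0.62 for Pik3ip1, 0.59 for Mid1ip1, -0.58 for Rnf144a, -0.71 for Olfml2b, -1.16 for Medag, -1.19 for Cdkn1a, -1.33 for Fibin and 5.94 for ENSRNOG00000042717.

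The change over 30 days differed between saline and methamphetamine in females for 36 genes named here, and the differences that follow are saline minus methamphetamine on the log2 scale. Most of these genes were listed by the study for a difference between the treatments at day 11, on libraries that included those used here. Among clock genes it was 3.30 for Dbp, 3.0 for Per3, 1.83 for Nr1d2, 1.82 for Tef, 1.36 for Nr1d1, -0.94 for Clock, -2.57 for Npas2 and -4.68 for Arntl. Among matrix genes it was -2.24 for Spon2, -2.05 for Col5a3, -2.01 for Eln, -1.56 for Mmp14, -1.28 for Loxl1, -0.96 for Fbn1, -0.79 for Col4a2, -0.69 for Col4a1, -0.61 for Emilin1 and -0.48 for Col15a1 under ENSRNOG00000039197. Positive differences in other genes were 1.26 for Mid1ip1, 0.95 for Pik3ip1, 0.72 for Herpud1, 0.60 for Dnajb4, 0.57 for Slc25a29, 0.53 for Slc25a38 and 0.52 for Klhdc8b. Negative ones were -5.50 for ENSRNOG00000012404, -5.38 for Myl4, -1.84 for Cdkn1a, -1.56 for Ucp3, -1.40 for Fibin, -1.21 for Medag, -1.15 for Olfml2b, -0.95 for Agpat3, -0.73 for Rnf144a, -0.63 for Tgm2 and -0.56 for Thra.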

How the results depend on the processing

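Against 327 called genes for time in saline-treated females, RLE factors, no filter, at least 10 counts in every library and limma on the normalized signal gave 273 to 340 genes. DESeq2 gave 535, limma voom 1527 (788 higher and 739 lower), 1 fit of all 8 groups 594, replicates labelled 5 kept 164 (47 higher and 117 lower) and an adjusted p under 0.05 159. Of the kept replicates labelled 5, the 2 in saline-treated females held 105 to 113% of the level of male genes found in males. With 1 library left out the count ran from 114 to 494. In no alternative did any of the 327 genes that could be tested change sign. Between same-numbered libraries of the 2 time points, deviations from the group means were correlated at -0.030, -0.25, -0.084 and -0.013. These values are for replicates 1, 2, 4 and 6, in that order. Correlations between libraries of different groups ran from -0.407 to 0.473. So few libraries, centred within their groups, cannot show whether a shared number marks related rats. The study divided each litter across all 8 groups, and the litter of each rat was not tested. With the replicate number as a block, 75 genes were called in saline-treated females, of which 68 were among the 327. Eln, Fbn1, Col4a1, Adamts12, Nr1d1 and Nr1d2 remained called (edgeR adjusted p of 0.0122, 0.0468, 0.0468, 0.0694, 0.0578 and 0.0728). Dbp, Mmp14, Myl4 and Medag, called in all 9 fits that left out 1 library, lost their calls (edgeR adjusted p of 0.117, 0.107, 0.112 and 0.131). So did Col4a2, Col5a3, Loxl1, Per3, Tef and Lmod2, among others (edgeR adjusted p of 0.102 to 0.242). The block gave 1119 genes in saline-treated males, 285 in methamphetamine-treated females and 85 for the difference between the sexes.

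For saline-treated males, against 202 genes, DESeq2 gave 426, voom 521, 1 fit of all groups 372, replicates labelled 5 kept 12 and an adjusted p under 0.05 84, and leaving out 1 library gave 56 (without replicate 6 of 30 days) to 344 (without replicate 3 of day 11). For methamphetamine-treated females, against 485 genes, the same settings gave 786, 1006, 1231, 152 and 214, and 166 (without replicate 2 of day 11) to 1131 (without replicate 2 of 30 days). For the difference between the sexes, against 145, DESeq2 gave 248, voom 866, replicates labelled 5 kept 51 and an adjusted p under 0.05 66, with 67 (without replicate 1 of saline-treated females at day 11) to 192 on leaving out 1 library. For the difference between the treatments, against 175, DESeq2 gave 319, voom 445, 1 fit of all groups 395, replicates labelled 5 kept 33 and an adjusted p under 0.05 114, with 121 to 325 (without replicate 2 of methamphetamine-treated females after 30 days). The cause of these shifts was not tested.

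Among genes named here, 5 that were not called changed sign. The log2 fold change of Timp3 was -0.031 with voom and -0.031 with the block, and -0.037 to 0.064 with 1 library left out. That of Per2 was -0.24 with voom and -0.064 with the block, and that of Slc2a12 -0.020 with voom. Dgat2 had 0.15 with replicates labelled 5 kept and -0.20 to 0.038 with 1 library left out, and Gja1 -0.10 to 0.082. The 4 libraries of day 11, the single pool per time point and the symbols known for 328 genes limit the comparison.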
